A study of Mus musculus with 8 samples.

Results

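The genes that modify, cut and internalize the Notch receptor and its ligands were followed in the developing lower molar after loss of the ligand gene Jagged1 from the epithelium. They are 9 of the 43629 genes counted, taken by symbol, in a choice made with earlier results of these data known: the fringes Lfng, Mfng and Rfng, the core glycosyltransferases Pofut1 and Poglut1, the metalloproteases Adam10 and Adam17, the ubiquitin ligase Mib1 and the adaptor Numb. Poly-A RNA of lower first molars was sequenced from 8 mouse embryos at E18.5, with the left and right molars of an embryo pooled. The 4 mutants were K14Cre;Jagged1fl/fl (embryos K14J26, K14J28, K14J29 and K14J30), and the 4 controls (embryos J3, J5, J6 and J7) are Jagged1fl/fl by their labels, which name no Cre for them. The text of the study calls the controls WT littermates. By the labels both groups carry the floxed Jagged1 alleles, so the presence of Cre and the deletion cannot be told apart. The keratin 14 promoter drives Cre in epithelium, whereas the whole molars also hold mesenchyme, vessels and nerve. In such bulk samples, fewer cells of a type and less RNA per cell cannot be told apart. Litter and sex were not used as such, since the labels give neither. The level of the RNA Xist, which marks an inactive X chromosome, was used as a covariate in an alternative fit.

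Notch receptors are glycosylated on their EGF repeats while they are made. Pofut1 adds O-fucose and Poglut1 adds O-glucose, and the fringe enzymes extend the fucose with N-acetylglucosamine, which shifts the response of the receptor between Delta and Jagged ligands. Mib1 ubiquitinates the ligand in the signal-sending cell and so drives the endocytosis that pulls on the receptor. Adam10 and Adam17 then cut the receptor outside the membrane, before gamma-secretase releases its intracellular part to the DNA-binding protein Rbpj (CSL), while Numb directs Notch to endocytosis and degradation. In the tooth germ, Notch receptors, ligands and Lfng are known for restricted expression in the layers of the dental epithelium.

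Jag1, the deleted gene, was examined first (ENSMUSG00000027276, chromosome 2, 137081456 to 137116644, minus strand, GRCm38). Levels are given as CPM, counts scaled to the normalized size of each library. Jag1 stood at 95.3, 103, 104 and 99.9 CPM in J3, J5, J6 and J7, against 34.0, 39.0, 46.0 and 57.1 CPM in K14J26, K14J28, K14J29 and K14J30. Every mutant lay below every control. The log2 fold change was -1.19 (SE 0.14, adjusted p = 0.00517, edgeR's quasi-likelihood test).

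Lfng fell to about the same extent as Jag1, and its expression is known in several tissues to respond to Notch. The sequence before its start site is therefore shown beside those of Rfng, a fringe that did not pass the test, and Numb, the member that rose. The windows hold the 250 bases upstream of the RefSeq start (GRCm38.p6), on the strand of the gene, at chr5:140607091-140607340 for Lfng, chr11:120784205-120784454 for Rfng and chr12:83921935-83922184 for the outermost of 3 annotated Numb starts. Capitals mark the CSL words GTGGGAA and TGGGAA on either strand.
Lfng: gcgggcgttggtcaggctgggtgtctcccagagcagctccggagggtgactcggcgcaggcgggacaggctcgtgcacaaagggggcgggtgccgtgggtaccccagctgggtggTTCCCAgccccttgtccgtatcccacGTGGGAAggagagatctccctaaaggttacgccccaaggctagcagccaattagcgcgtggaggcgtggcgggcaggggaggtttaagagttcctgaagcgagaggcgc
Rfng: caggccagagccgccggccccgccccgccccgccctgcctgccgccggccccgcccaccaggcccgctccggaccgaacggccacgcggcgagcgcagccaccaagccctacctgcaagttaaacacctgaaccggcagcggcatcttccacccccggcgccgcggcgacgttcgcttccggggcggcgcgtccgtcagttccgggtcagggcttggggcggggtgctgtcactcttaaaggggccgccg
Numb: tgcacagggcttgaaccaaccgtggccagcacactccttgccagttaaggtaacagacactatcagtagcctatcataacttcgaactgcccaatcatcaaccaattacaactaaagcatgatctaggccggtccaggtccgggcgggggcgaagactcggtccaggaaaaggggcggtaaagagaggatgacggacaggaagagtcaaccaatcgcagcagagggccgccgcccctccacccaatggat

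The Lfng window held the CSL core word GTGGGAA, which starts 109 bases upstream of the start site, and the shorter word TGGGAA on the opposite strand at 135 bases. The palindrome CACGTG, the word of the Hey and other E-box factors, lay at 112 bases and overlapped the core. The word CACNAG, the N-box of Hes factors, occurred once, on the opposite strand at 181 bases. Both strands were searched in the windows of 7 of the 9 genes. Of 32841 RefSeq windows of the same length, 9.01% held GTGGGAA or GTGAGAA, 21.6% held TGGGAA, 6.02% held CACGTG and 36.7% held CACNAG. The windows of Rfng, Pofut1, Adam10 and Adam17 held neither CSL word, nor did that of the outermost Numb start. The Poglut1 window held TGGGAA once, at 63 bases on the opposite strand. The other words were not particular to Lfng: CACGTG lay in the Adam10 window at 64 bases and CACNAG in the Rfng window at 195 bases. Of the other Numb starts, which coincide with internal exons, that at position 83842358 held GTGAGAA at 238 bases and CACNAG at 100 bases. The Lfng window had a GC content of 66% with 18 CpG dinucleotides, beside 75.6% and 34 for Rfng, 55.2% and 12 for Numb, and a median of 52.4% and 6 over all windows. A word match is a description of the sequence and no binding was measured here.

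Of the 9 genes, 1 fell and 1 rose at an adjusted p under 0.05. Lfng was the one that fell, and Numb the one that rose. Among the 17129 genes tested, 6.61% fell and 9.52% rose by this rule. The cut-offs named by the study, a fold change of 0.5 and a p of 0.05, were read here as an unadjusted p and a log2 ratio in either direction. By that reading Lfng passed as lower and no member as higher, against 5.85% and 8.33% of the genes tested. The groups did not overlap in 3 members (Lfng, Mfng and Numb), compared with 24.2% of all genes. An unadjusted p no higher than 0.05 was reached by 5 members, compared with 34.9% of all genes. Ignoring direction, the members had a median log2 fold change of 0.15, and all genes tested one of 0.22. In the plot of fitted changes by gene, the interval of Lfng lies apart from those of the other 8 members.

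**Figure D1:**
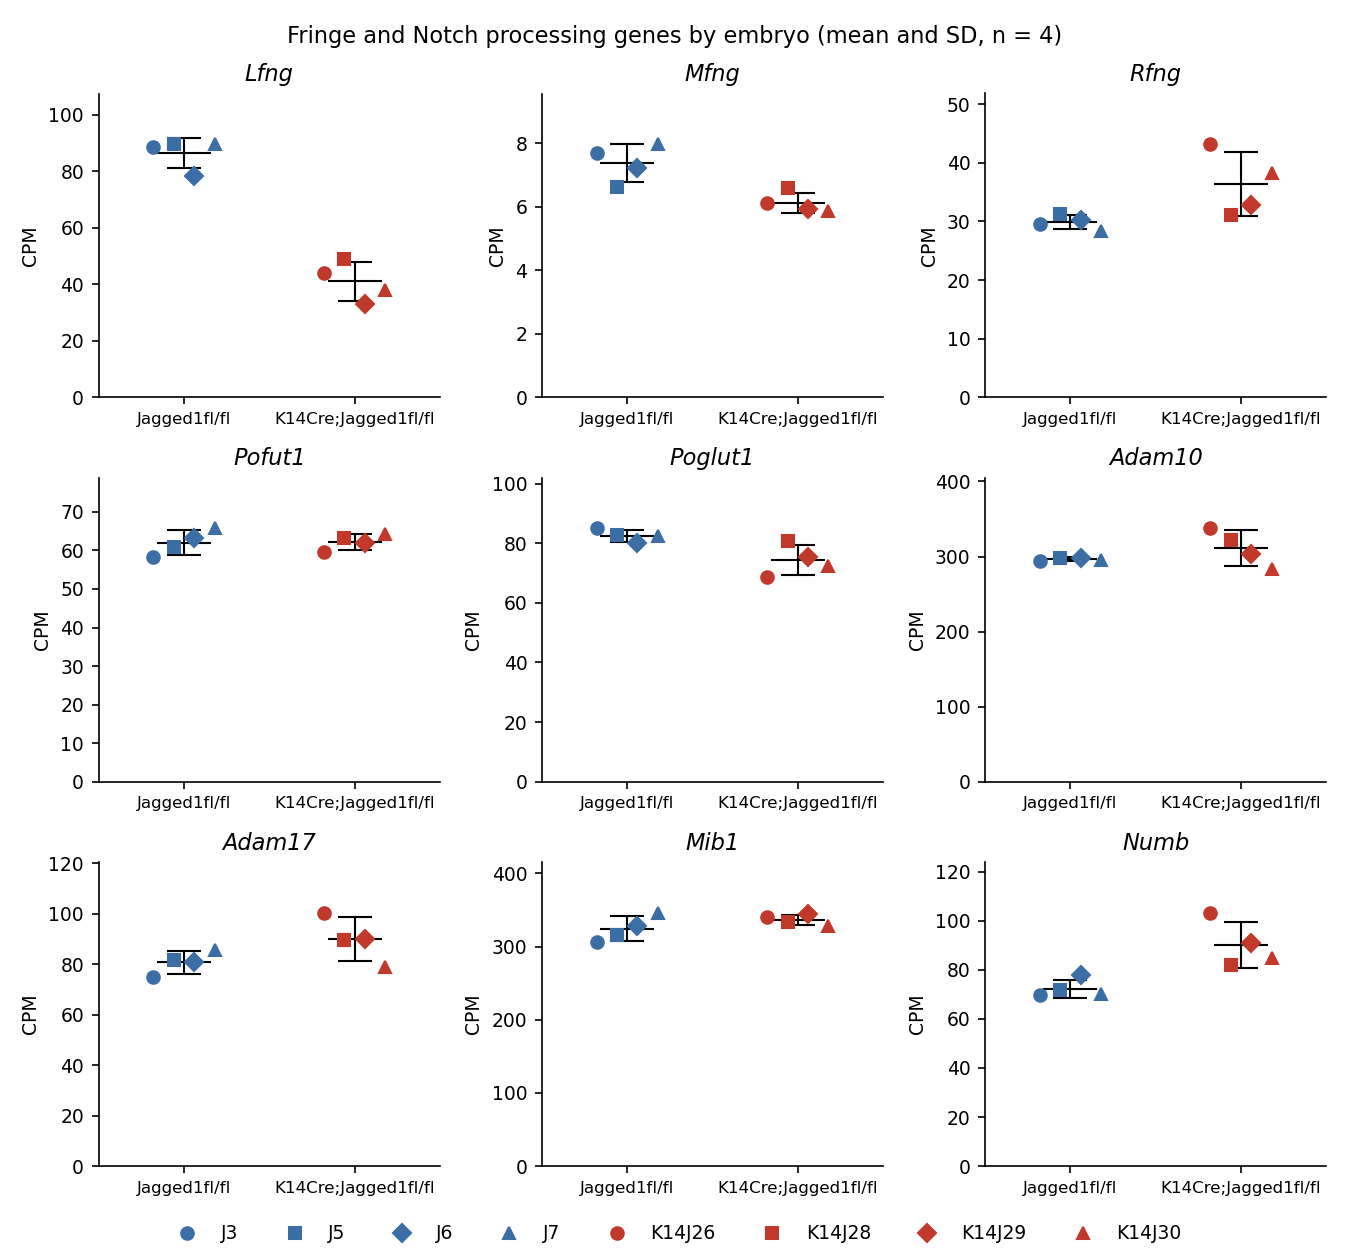
CPM of each member (vertical axes from 0, a scale for each gene) in the 4 Jagged1fl/fl and 4 K14Cre;Jagged1fl/fl molars, with symbols for embryos and bars for the mean and SD. The groups are apart for Lfng, Mfng and Numb and overlap for the other 6 genes.

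**Figure D2:**
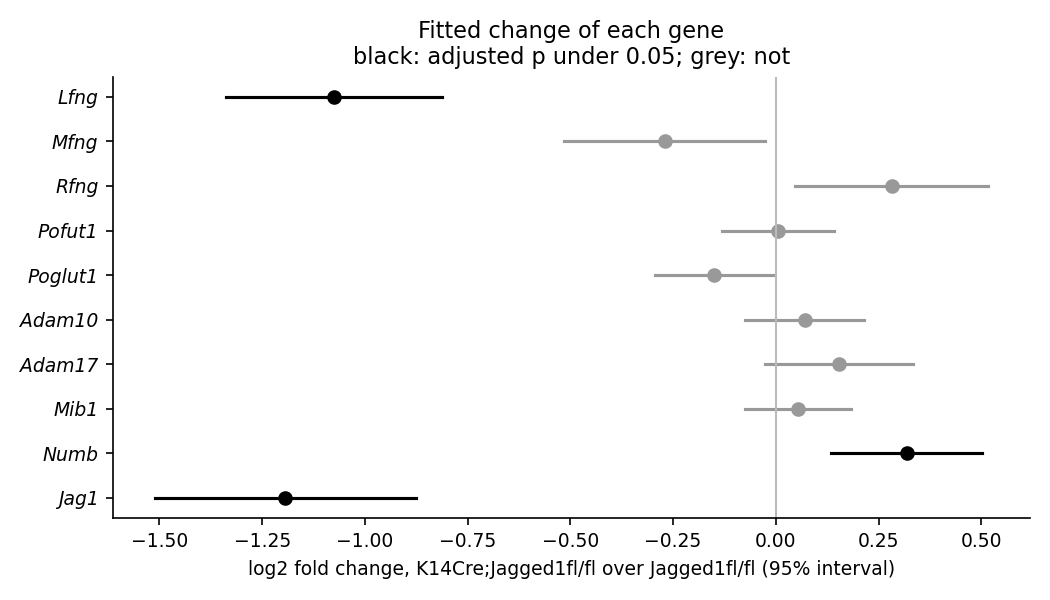
Log2 fold change of the 9 members and Jag1 (points) with 95% intervals (lines) from the fit across all genes, black where the adjusted p was under 0.05. Lfng at -1.08 stands apart from the other members, which lie between -0.27 and 0.32.

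Lunatic fringe (Lfng, ENSMUSG00000029570, chromosome 5, 140607320 to 140615545, plus strand) stood at 88.5, 89.5, 78.3 and 89.4 CPM in J3, J5, J6 and J7. It stood at 44.0, 49.1, 33.1 and 37.9 CPM in K14J26, K14J28, K14J29 and K14J30. Every mutant lay below every control, and the highest mutant was still well under the lowest control. The mean went from 86.4 ± 5.44 to 41.0 ± 6.97 CPM (SD, n = 4 each), 47.5% of the control level. The log2 fold change was -1.08 (SE 0.12, 95% interval -1.34 to -0.81, adjusted p = 0.00485). It kept an adjusted p under 0.05 with each embryo left out in turn. Without J6 and J7, the controls in which muscle genes were high, the log2 fold change was -1.12 with an adjusted p of 0.115, and 3 higher and 4 lower genes were then called in the whole table.

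Markers of dental epithelium, the tissue of Cre activity, did not fall with Lfng: their summed level was 4916 to 5614 CPM in controls and 5894 to 8351 CPM in mutants, with 1 of 8 genes called, and higher. Ameloblast markers, genes of the enamel-secreting epithelial cells, summed to 557 to 3254 CPM in controls and 3503 to 114400 CPM in mutants, with 4 of 5 called higher. With the ameloblast marker score as a covariate, the log2 fold change of Lfng was -0.94 (adjusted p = 0.0309). Since the groups do not overlap in this score, neither this fit nor those of other members can tell it apart from genotype. The order of the mutants differed between the deleted gene and Lfng. K14J26 was the lowest mutant for Jag1, whereas K14J29 was the lowest for Lfng. K14J28 had the highest Lfng, and K14J30 the highest Jag1.

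**Figure D3:**
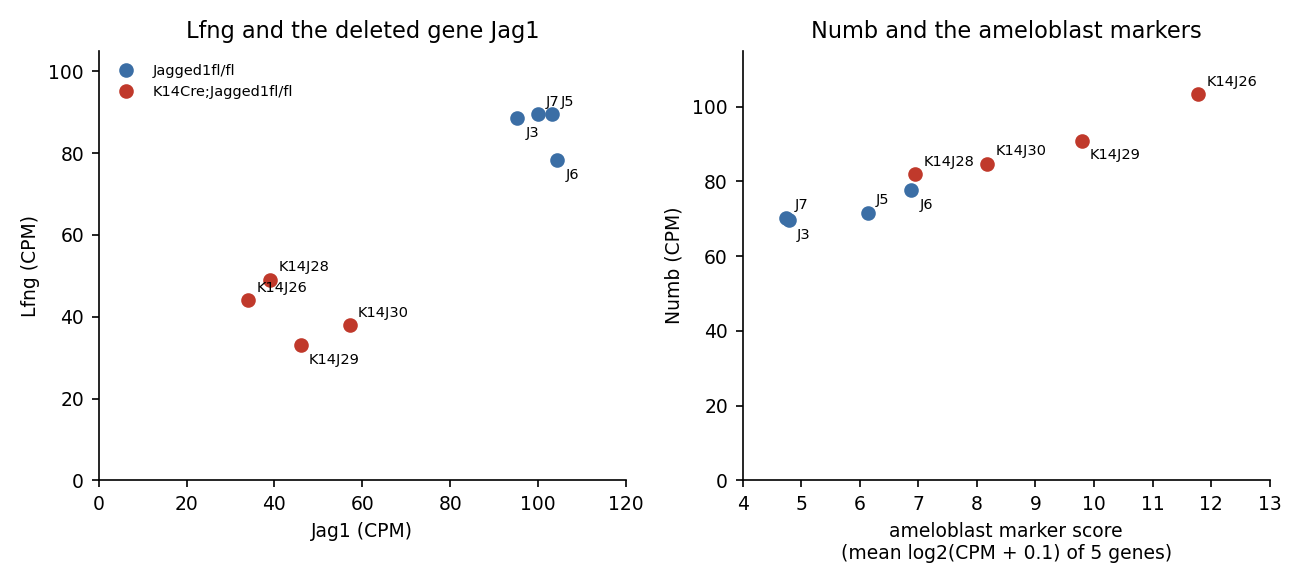
Left, Lfng against Jag1 in CPM, and right, Numb in CPM against the ameloblast marker score (mean log2(CPM + 0.1) of 5 genes), 1 point per embryo coloured by group. Controls and mutants form separate clusters in the left plot, with Lfng at 78.3 to 89.5 and 33.1 to 49.1 CPM, and the mutant with the highest score, K14J26, has the highest Numb at 103 CPM in the right plot.

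The genes whose pattern over the 8 embryos was most like that of Lfng were sought among the 10519 tested genes with a mean of at least 10 CPM. They were Spry2 (Pearson r = 0.997 of log2 CPM), an inhibitor of receptor tyrosine kinase signaling, Zfp868 (r = 0.991), a zinc finger gene, and Eif4enif1 (r = 0.988), which binds the translation factor eIF4E. The points share the difference between the groups, and these values describe the search. The log2 fold changes were -1.02 (SE 0.14) for Spry2, -0.35 (SE 0.07) for Zfp868 and -0.19 (SE 0.05) for Eif4enif1. Spry2 was thus close to Lfng in the size of its change, and the other 2 genes changed less.

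Manic fringe (Mfng, ENSMUSG00000018169, chromosome 15, 78755882 to 78773475, minus strand) was the lowest member. It stood at 7.70, 6.64, 7.21 and 7.97 CPM in J3, J5, J6 and J7 and at 6.11, 6.59, 5.93 and 5.86 CPM in K14J26, K14J28, K14J29 and K14J30. The groups did not overlap, but the highest mutant and the lowest control were nearly equal. The log2 fold change of -0.27 (SE 0.11, interval -0.51 to -0.03) had an adjusted p of 0.113, and with the ameloblast score as a covariate it was -0.16 with one of 0.643. The sum of 8 endothelial markers was also lower in mutants, at 274 to 335 CPM against 341 to 380 CPM in controls. Of these 8 genes 1 was called lower. Their part in the Mfng values was not tested.

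Radical fringe (Rfng, ENSMUSG00000025158, chromosome 11, 120780746 to 120784207, minus strand) stood at 29.6, 31.2, 30.3 and 28.4 CPM in J3, J5, J6 and J7. It stood at 43.2, 31.1, 32.8 and 38.3 CPM in K14J26, K14J28, K14J29 and K14J30. K14J26, K14J29 and K14J30 lay above all controls and K14J28 among them. The log2 fold change was 0.28 (SE 0.10, interval 0.05 to 0.52, adjusted p = 0.0914). Without K14J28 it was 0.34 with an adjusted p of 0.0315, and with Xist as a covariate 0.47 with an adjusted p of 0.0246. Xist, the RNA of the inactive X chromosome, was high in K14J28 and K14J29 and at or below 1.09 CPM in the other 6 embryos. With the ameloblast score as a covariate the value was 0.04 (adjusted p = 0.901). K14J28 also stood apart in some markers of cornified epithelium and immune cells, and in those of osteoclasts. The keratin Krt13 was at 397 CPM there and at 2.72 to 89.7 CPM in the other embryos, the osteoclast protease Ctsk at 807 against 106 to 252 CPM, and the macrophage receptor gene Csf1r at 92.8 against 26.6 to 44.9 CPM. The immune markers C1qa, C1qb, Adgre1 and Aif1 and the keratin Krt10 were instead within the range of the other embryos in K14J28. The part of these cell types in the values of K14J28 was not tested.

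The make-up of the fringe transcripts was compared as the share of Lfng, which carries the fall of Lfng given above. A share of counts within a library does not depend on scaling between libraries. Lfng made up 70.3%, 70.3%, 67.6% and 71.1% of the fringe counts in J3, J5, J6 and J7. It made up 47.2%, 56.5%, 46.1% and 46.2% in K14J26, K14J28, K14J29 and K14J30. Every mutant was below every control, and K14J28 stood above the other mutants. The exact binomial 95% intervals, which cover counting error only, ran from 65.6% to 72.5% over the controls and from 43.9% to 58.4% over the mutants. The means were 69.8% ± 1.52 and 49.0% ± 5.05 (SD, n = 4 each), a difference of -20.8 percentage points. The two-sided exact permutation test gave p = 0.0286, the smallest that 4 against 4 can give and adjusted to 0.0858 over the 3 shares tested.

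The share of Rfng was 24.2% ± 1.53 in controls and 43.6% ± 5.19 in mutants, and that of Mfng was 5.97% ± 0.516 and 7.38% ± 0.718. Rfng thus supplied about as many counts as Lfng in K14J26, K14J29 and K14J30. Per exon length the Lfng share was 68.0% to 71.5% in controls and 46.4% to 56.9% in mutants, so the lengths of the genes hardly alter it. The summed level of the fringes was 124.0 ± 5.31 CPM in controls and 83.5 ± 9.01 CPM in mutants, and the groups did not overlap.

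**Figure D4:**
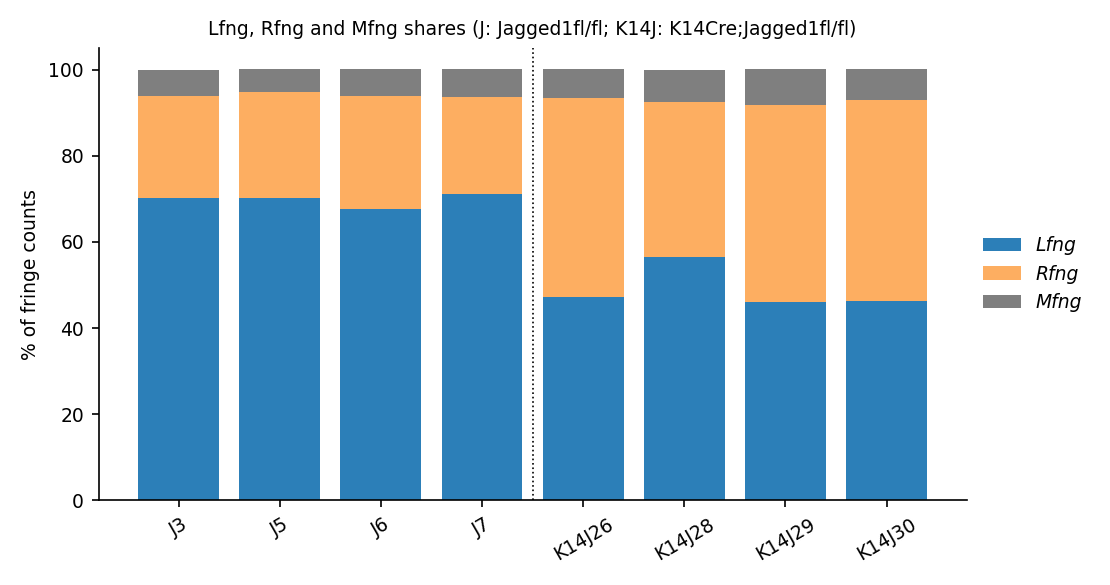
Percent of the counts on Lfng, Rfng and Mfng taken by each (stacked bars), 1 bar per embryo, controls to the left of the dotted line. Lfng takes 67.6% to 71.1% in controls and 46.1% to 56.5% in mutants.

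The core glycosyltransferases did not pass the test. Pofut1 (ENSMUSG00000046020, chromosome 2, 153241533 to 153270247, plus strand) stood at 58.2, 60.9, 63.4 and 65.7 CPM in J3, J5, J6 and J7 and at 59.6, 63.3, 61.9 and 64.3 CPM in K14J26, K14J28, K14J29 and K14J30. The mutant values lay within the range of the controls, and the 95% interval of the log2 fold change ran from -0.13 to 0.14 (adjusted p = 0.964). Poglut1 (ENSMUSG00000034064, chromosome 16, 38525137 to 38550258, minus strand) stood at 85.0, 82.6, 80.1 and 82.5 CPM in J3, J5, J6 and J7. It stood at 68.7, 80.8, 75.5 and 72.5 CPM in K14J26, K14J28, K14J29 and K14J30, with K14J28 alone inside the control range. Its log2 fold change of -0.15 (SE 0.06, interval -0.29 to -0.01) had an adjusted p of 0.127. Without K14J28 it was -0.20 with an adjusted p of 0.0393, and with the ameloblast score as a covariate -0.02 with an adjusted p of 0.907. Pofut1 made up 42.9% ± 1.72 of the counts of both genes in controls and 45.6% ± 1.39 in mutants (exact permutation p = 0.0857, adjusted to 0.129).

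The metalloproteases did not pass the test either. Adam10 (ENSMUSG00000054693, chromosome 9, 70678997 to 70780229, plus strand), the protease of ligand-dependent cleavage, stood at 293.8, 298.1, 298.7 and 295.7 CPM in J3, J5, J6 and J7. It stood at 337, 322, 303 and 283 CPM in K14J26, K14J28, K14J29 and K14J30. The controls lay close together, with a coefficient of variation of 0.763%, and the mutants lay on both sides of them, with one of 7.52%. The log2 fold change was 0.07 (SE 0.06, interval -0.07 to 0.22, adjusted p = 0.46), and it was 0.03 without K14J26 and 0.11 without K14J30.

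Adam17 (ENSMUSG00000052593, chromosome 12, 21323509 to 21373632, minus strand), a sheddase of many membrane proteins, stood at 74.8, 81.7, 80.7 and 85.6 CPM in J3, J5, J6 and J7. It stood at 100.4, 89.8, 90.1 and 79.1 CPM in K14J26, K14J28, K14J29 and K14J30. The mutants other than K14J30 lay above all controls, and the log2 fold change was 0.15 (SE 0.08, interval -0.03 to 0.33, adjusted p = 0.203). It was 0.10 without K14J26 and 0.02 with the ameloblast score as a covariate. Adam17 shares 311 exon bases, 4.35% of its exon length, with Iah1 on the opposite strand, and the library kit does not mark strand. Iah1 had a log2 fold change of -0.11 (SE 0.10). Adam10 made up 78.6% ± 0.888 of the counts of both proteases in controls and 77.6% ± 0.628 in mutants (exact permutation p = 0.143, adjusted to 0.143). Without J7 the difference went from -0.985 to -1.34 percentage points with p = 0.0286, the smallest that the exact test of 3 against 4 gives.

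Mib1 (ENSMUSG00000024294, chromosome 18, 10725548 to 10818704, plus strand) stood at 307, 316, 329 and 346 CPM in J3, J5, J6 and J7. It stood at 341, 334, 344 and 328 CPM in K14J26, K14J28, K14J29 and K14J30. The mutant values lay within the control range, and the log2 fold change was 0.05 (SE 0.06, interval -0.08 to 0.18, adjusted p = 0.534). It was 0.03 without J3 and 0.03 without J5. The microRNA genes Mir133a-1 and Mir1b lie within Mib1 and share no exon base with it.

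Numb (ENSMUSG00000021224, chromosome 12, 83794034 to 83921934, minus strand) stood at 69.7, 71.7, 77.8 and 70.3 CPM in J3, J5, J6 and J7. It stood at 103, 82.0, 90.9 and 84.8 CPM in K14J26, K14J28, K14J29 and K14J30. Every mutant lay above every control. The mean went from 72.4 ± 3.71 to 90.2 ± 9.46 CPM (SD, n = 4 each), with a log2 fold change of 0.32 (SE 0.08, interval 0.13 to 0.50, adjusted p = 0.0323). The call of Numb depended on single embryos, whereas that of Lfng did not. The adjusted p was 0.0898 without J3, 0.0865 without J5, 0.0931 without J7 and 0.0859 without K14J29, at log2 fold changes of 0.30 to 0.32. Calls over all genes also fell in these settings, from 1631 higher and 1133 lower to 250 to 451 higher and 170 to 388 lower. Without J6 and J7 together the log2 fold change of Numb was 0.35 with an adjusted p of 0.167. Numb shares 166 exon bases, 4.24% of its exon length, with the transcript Gm46367 on the opposite strand.

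The order of the mutants in Numb was that of the ameloblast marker score. K14J26 led with a score of 11.8, K14J29 had 9.79, K14J30 had 8.18 and K14J28 was lowest at 6.95. Among the controls J6 was highest in both, with a score of 6.88. With this score as a covariate the log2 fold change of Numb was 0.07 (adjusted p = 0.616). The groups did not overlap in the score, with the controls at 4.75 to 6.88 and the mutants at 6.95 to 11.8, so the score and the genotype cannot be told apart. In the mutants with low Xist, K14J26 and K14J30, Numb stood at 103 and 84.8 CPM and Lfng at 44.0 and 37.9 CPM, outside the range of the controls, whose Xist was also low.

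Among themselves the mutants varied more than the controls in 6 of the 9 members and less in 3 (Mfng, Pofut1 and Mib1). The coefficient of variation ran from 0.763% to 7.94% in controls and from 2.07% to 17.0% in mutants. K14J26, with the highest ameloblast markers, was the highest mutant in 4 members (Rfng, Adam10, Adam17 and Numb) and the lowest in 2 (Pofut1 and Poglut1). Of the 9 members, 4 lay within the control range in K14J28, 3 in K14J30 and 2 each in K14J26 and K14J29, and Pofut1 and Mib1 did so in every mutant. The part of the ameloblast markers in these values was not tested gene by gene beyond the covariate fit.

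To set the genes beside each other, levels were divided by exon length (RPKM, CPM per kilobase of exon). In controls the mean order was Adam10 at 60.4, Lfng at 34.5, Mib1 at 29.7, Numb at 18.47, Poglut1 at 17.7, Rfng at 12.01, Adam17 at 11.3, Pofut1 at 6.26 and Mfng at 2.60 RPKM. The neighbours Lfng and Mib1, Numb and Poglut1, and Rfng and Adam17 overlapped between embryos. In mutants Adam10 stayed first at 63.4 RPKM, followed by Mib1 at 30.8 and Numb at 23.0 RPKM. Lfng came next at 16.4 RPKM, overlapping with Poglut1 at 16.0 RPKM. Rfng stood at 14.6, Adam17 at 12.6, Pofut1 at 6.28 and Mfng at 2.16 RPKM. Lfng thus moved from beside Mib1 to beside Poglut1, while the lowest genes, Pofut1 and Mfng, kept their places.

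The rest of the Notch pathway was read in 7 lists of 65 genes, of which 64 were tested. Of these, 2 rose and 10 fell, which is 3.12% and 15.6%, beside the 9.52% and 6.61% of all genes tested. The lists are small, and their counts are given as descriptions. The 4 receptors gave no call, with a median log2 fold change of -0.04. Of 4 tested ligands Jag1 fell and the other 3 (Jag2, Dll1 and Dll4) did not pass. Of 7 gamma-secretase genes 1 fell, Aph1b, a subunit gene that has the close copy Aph1c, between which reads may be split. Aph1b had a log2 fold change of -0.37 (SE 0.07, adjusted p = 0.0133), and the list median was 0.12.

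Of 8 other glycan enzymes 1 rose and 2 fell, with a median of -0.10. B4galt1, a galactosyltransferase that can extend the fringe product, rose with a log2 fold change of 0.37 (SE 0.09, adjusted p = 0.0325). Xxylt1 and Gxylt2, xylosyltransferases that extend the O-glucose placed by Poglut1, fell with log2 fold changes of -0.42 (SE 0.09, adjusted p = 0.0186) and -0.39 (SE 0.09, adjusted p = 0.0282).

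Of 20 genes of maturation and trafficking 1 rose and 1 fell, with a median of -0.01. Itch, a ubiquitin ligase that acts on Notch, stood at 75.2, 70.5, 73.2 and 67.8 CPM in J3, J5, J6 and J7 and at 98.6, 107, 106 and 99.5 CPM in K14J26, K14J28, K14J29 and K14J30. Its groups did not overlap, and its log2 fold change was 0.52 (SE 0.06, adjusted p = 0.00517). Dtx1, a Deltex ubiquitin ligase gene that is itself known as a Notch target, fell with a log2 fold change of -0.77 (SE 0.16, adjusted p = 0.0192). Numbl, the paralog of Numb, had a value of -0.05 (SE 0.11).

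Of 11 nuclear genes 2 fell, the coactivator gene Maml2 at -0.39 (SE 0.09, adjusted p = 0.0273) and the acetyltransferase gene Kat2a at -0.30 (SE 0.07, adjusted p = 0.0273), with a list median of 0.05. Of 10 target genes 3 fell, with a median of -0.43, beside 0.01 over all genes tested. Nrarp, a feedback inhibitor of Notch, fell with a log2 fold change of -0.45 (SE 0.07, adjusted p = 0.0104), and Hes6 with one of -0.49 (SE 0.08, adjusted p = 0.00977). Hes5 fell from 0.405 to 0.609 CPM in controls to 0.0333 to 0.0776 CPM in mutants (adjusted p = 0.00557), where each mutant is below the level of 3 counts. The other 7 did not pass. Hes1 stood at -0.09 (SE 0.08), and the others were Hey2 at -1.08 (SE 0.33, adjusted p = 0.0531), Ccnd1 at -0.59 (SE 0.20, adjusted p = 0.0751), Myc at -0.40 (SE 0.19, adjusted p = 0.168), Hes7 at -0.08 (SE 0.39, adjusted p = 0.9), Hey1 at 0.33 (SE 0.13, adjusted p = 0.103) and Heyl at 0.41 (SE 0.13, adjusted p = 0.0609).

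**Figure D5:**
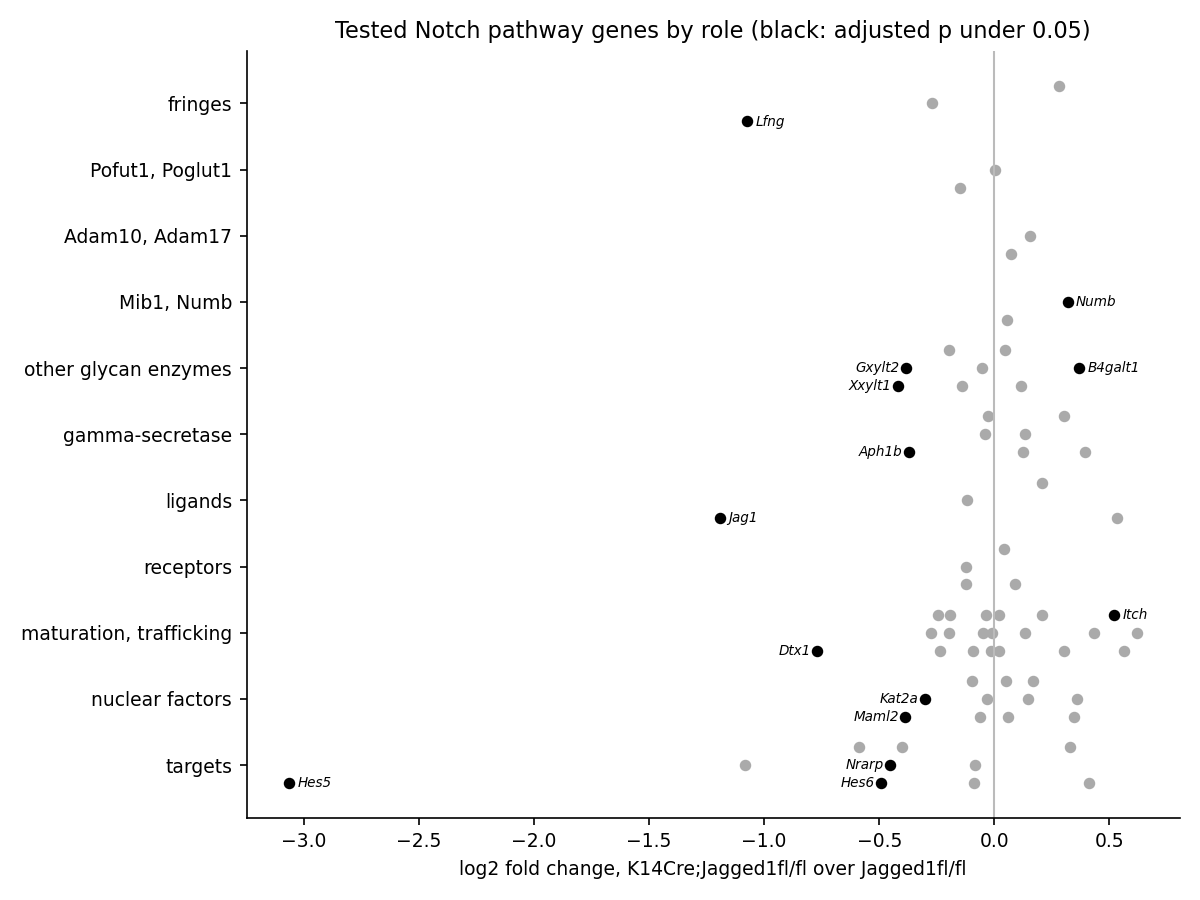
Log2 fold change (horizontal axis) of each tested Notch pathway gene, 1 point per gene, in rows by role (vertical offsets within a row only separate points), black and named where the adjusted p was under 0.05. Lfng at -1.08 and Jag1 at -1.19 lie near each other; the value of Hes5 rests on few counts and is no bound.

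Totals were 17327224 to 28613574 counts in controls and 24692128 to 29792467 in mutants, and 3 counts corresponded to 0.0998 to 0.166 CPM, far below every member. Within groups the counts of each pair of embryos differed by more than counting noise. Markers of dental epithelium and mesenchyme were present in every embryo, with Krt5 and Vim the highest of their lists. Skeletal muscle markers summed to 4.98 to 400.5 CPM in controls, high in J6 and J7, and to 5.34 to 19.1 CPM in mutants. Dental mesenchyme markers summed to 1394 to 1499 CPM in controls and 1229 to 1422 CPM in mutants, with 5 of 8 called lower. Odontoblast markers summed to 493 to 1643 and 1991 to 6807 CPM with 1 of 2 called higher, and osteoblast markers to 298 to 362 and 411 to 640 CPM with 2 of 3 called higher. Of 6 Schwann cell markers 1 was called lower, and the immune, erythroid, osteoclast, cornified epithelium and cartilage lists gave no call, although the sums of the immune, osteoclast and cornified epithelium lists were highest in K14J28, at 206, 1821 and 683 CPM, against at most 121, 687 and 141 CPM in controls. The part of these lists in the members' values was not tested.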

How the data were processed

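Single-end reads were trimmed (Trimmomatic) and aligned to GRCm38 (STAR) by the authors, who deposited raw counts per Ensembl gene, 1 table per embryo. The methods of the study name GenomicRanges for the counting, and the submitters' processing notes name featureCounts and GRCm38.p3. The treatment of strand and of reads with several matches is not given in the sources used here. The labels name Trizol for the RNA, and the design text names a column kit.

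Symbols, positions and exon lengths came from a GENCODE annotation of GRCm38, with 42548 of the 43629 identifiers in it. A gene entered the test if 2 of the 4 embryos of 1 group or more had 10 or more counts, which 17129 did. R 4.3.3 was used with edgeR 4.0.16 for TMM scaling and the quasi-likelihood test, with no covariate, and p-values were adjusted over all genes tested by the Benjamini-Hochberg method. A gene was called at an adjusted p under 0.05. Fold changes are K14Cre;Jagged1fl/fl over Jagged1fl/fl. The SE is the absolute log2 fold change over the square root of F. Shares were compared by two-sided exact permutation tests over 70 arrangements, 3 shares in all. The precision is set by 4 embryos per group rather than by depth.

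The alternatives were scaling by upper quartile, by relative log expression or by library size alone, DESeq2 1.42.0, limma-voom (limma 3.58.1), other count filters, leaving out the 20 most abundant genes, covariates for ameloblast markers, skeletal muscle markers and Xist, the criteria of the study, and leaving out each embryo. Leaving out J6 and J7 together was added after seeing the data. The members and lists were chosen with earlier results of these data known. The genes named are the members, Jag1, at most 3 called genes of each other list with the largest change, the 3 genes most like Lfng, overlapping genes and the highest markers. Jag2, Dll1, Dll4, Aph1c, Numbl, C1qa, C1qb, Adgre1, Aif1, Krt10, the targets that did not pass and Xist were named after their values were seen. Promoter windows came from RefSeq on GRCm38.p6, for 7 of the 9 members.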

Additional observations from a re-analysis of the deposited data

Results flagged for a closer look

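Lfng in J6, at 78.3 CPM, lay apart from the other 3 controls, with a gap to the nearest of them of 0.908 of the range of the group, above the 95% limit of Dixon's criterion for 4 samples. J6 is also one of the controls with high muscle markers and has the highest ameloblast score of the controls. The share of Lfng among the fringe counts in K14J28, at 56.54%, lay apart from the other 3 mutants, with a gap of 0.897 of the range. K14J28 had the lowest ameloblast score of the mutants and the highest immune, osteoclast and cornified epithelium marker sums of all embryos. Of 26 groups of values examined these 2 passed, and chance passes about 1 in 20.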

How the results depend on the processing

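Over 20 alternatives the log2 fold change of Lfng lay between -1.18 and -0.94, and its call was lost without J6 and J7 (-1.12, adjusted p = 0.115). Jag1 lay between -1.34 and -1.04, and lost its call in the same setting (-1.17, adjusted p = 0.115). With 1 embryo left out, Lfng lay between -1.18 and -0.98 and Jag1 between -1.34 and -1.09. The loss was seen across the table: 3 higher and 4 lower genes were called there, beside 1631 and 1133, with 2 controls fewer.

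Numb kept its call in 12 of 20 alternatives. It lost it with library size scaling (0.21, adjusted p = 0.0629), the ameloblast covariate (0.07, adjusted p = 0.616), the muscle covariate (0.32, adjusted p = 0.124), without J6 and J7 (0.35, adjusted p = 0.167), and without J3, J5, J7 or K14J29. The cause was not tested. The number of members called higher was accordingly 0 in the first 4 of these settings and under the criteria of the study, 2 with the Xist covariate, and 0 to 2 with 1 embryo left out. The number called lower was 0 without J6 and J7 and 1 to 2 with 1 embryo left out.

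The sign of small changes was not stable. Pofut1 reversed with upper-quartile scaling (-0.0365), library size scaling (-0.0914), at least 10 counts in every embryo (-0.005) and the Xist covariate (-0.0078), and lay between -0.0247 and 0.0271 with 1 embryo left out, reversed without J3 (-0.0247), J5 (-0.0162), K14J28 (-0.0076) and K14J30 (-0.0103). Adam10 reversed with library size scaling (-0.0334) and the ameloblast covariate (-0.0017), and Mib1 with library size scaling (-0.0469). Other members kept their sign but changed in size with library size scaling. Rfng went from 0.28 to 0.17 (adjusted p = 0.212), Poglut1 from -0.15 to -0.24 (adjusted p = 0.144) and Adam17 from 0.15 to 0.05 (adjusted p = 0.686). The difference in the Adam10 share lay between -1.34 and -0.62 percentage points with 1 embryo left out, and that in the Lfng share between -23.3 and -19.9. Calls over all genes were 1631 higher and 1133 lower in the fit reported, 2244 and 1718 with DESeq2, 855 and 1060 with library size scaling, 186 and 112 with the ameloblast covariate, 45 and 46 with the muscle covariate, and 250 to 2479 and 170 to 1843 with 1 embryo left out.

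The study calls the controls littermates, but the labels do not give the litters, so no pairing by litter was possible. The embryo numbers of the groups also have none in common.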
